A study of Mus musculus with 16 samples.

Results

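The small heat shock proteins of skeletal muscle and their autophagy partner were described in 2 muscles, gastrocnemius (Gas) and soleus (Sol), of LSD1-mKO mice and their wild type (WT) controls. The 8 genes were *Hspb1*, *Hspb2*, *Hspb3*, *Hspb6*, *Hspb7*, *Hspb8*, *Cryab* and *Bag3*, chosen by name among the 24421 genes of each count table. All 8 were found in both tables and all 8 passed the filter on low counts in every comparison. They were chosen with the difference between LSD1-mKO and WT already known, so their values in that comparison are a description, and the counts of calls given there support nothing about them. The comparison of Sol with Gas was tested. It uses the same libraries, and earlier results of these data were known when the genes were chosen.

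Small heat shock proteins are ATP-independent chaperones built around an alpha-crystallin domain. They assemble into oligomers, bind proteins that begin to unfold and hold them until ATP-driven chaperones of the Hsp70 family take over. In striated muscle they gather at Z-discs, intermediate filaments and filamin, where contraction unfolds proteins. BAG3 joins HSPB8 to Hsp70 and to the ubiquitin ligase CHIP, and thereby delivers damaged filamin to autophagosomes, a route named chaperone-assisted selective autophagy.

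All mice were male C57BL/6, 8 weeks old at the first injection. LSD1-mKO mice carried floxed alleles of *Lsd1* (listed as *Kdm1a*, a histone demethylase) on both chromosomes and a tamoxifen-activated Cre recombinase, CreERT2, driven by the human ACTA1 promoter in skeletal muscle fibers, so other cells of the muscle kept the gene. WT mice carried the floxed alleles without CreERT2. Tamoxifen (75 mg/kg, 5 days) and, from its day 4, dexamethasone (1 mg/kg, 7 days) were injected in both genotypes. Dexamethasone is a synthetic glucocorticoid that causes muscle wasting, and no untreated muscle entered any comparison. Fast fibers make up most of Gas, whereas Sol has many slow fibers. Poly(A) RNA of 3 WT and 5 LSD1-mKO libraries per muscle was sequenced, 16 libraries in 4 groups. Levels are given as CPM, reads of a gene relative to the library total after one scaling over the 16 libraries.

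Heat shock factors bind repeats of the letters GAA and their reverse complement, and the promoters of small heat shock protein genes are known targets. RefSeq promoters (GRCm38.p6, 250 bases before to 50 bases after the start) were matched for 6 of the 8 genes, with 7 start sites in all, because *Hspb6* has 2. The letters GAANNTTC, which read the same on both strands, occurred in 5 of the 7 promoters and in 7.86% of all 32851 promoters of the same length. The exact run GAAGTTTC stood in the promoters of 4 genes: *Hspb1* (from -117 to -110 relative to the start), the 2nd start site of *Hspb6* (from -120 to -113), *Hspb8* (from 3 to 10) and *Bag3* (from 43 to 50). That run was read from the matches and was not searched for in all promoters, so its share there is not known. *Hspb1* held a second match, GAACCTTC, from -97 to -90, and *Hspb3* held GAATTTTC from -224 to -217. *Hspb7*, the gene of the 8 with the largest difference between muscles in WT, held no match in this window. The outward arrangement TTCNNGAA (8.52% of all promoters) and the forkhead core GTAAACA with its reverse complement TGTTTAC (3.65%) were in 0 of the 7. The short glucocorticoid receptor motif AGAACA or its reverse complement TGTTCT (19% of all promoters) was in 1, that of *Hspb8*, from -128 to -123. The whole glucocorticoid element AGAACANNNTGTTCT, which joins both of these, was in 0 of the 7 and in 0.00913% of all promoters. These matches describe letters and not bound sites. The promoters of *Hspb1* and *Hspb6*, which hold the match upstream of the start, and of *Hspb7*, which holds none, are printed 5′ to 3′ with the heat shock letters in capitals.
*Hspb1*, chr5:135887669-135887968, plus strand: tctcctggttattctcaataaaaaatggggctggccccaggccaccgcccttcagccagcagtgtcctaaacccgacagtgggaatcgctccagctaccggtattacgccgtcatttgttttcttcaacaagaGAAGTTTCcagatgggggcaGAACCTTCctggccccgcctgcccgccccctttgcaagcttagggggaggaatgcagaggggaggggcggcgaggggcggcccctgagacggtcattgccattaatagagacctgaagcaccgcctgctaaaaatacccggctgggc
*Hspb6*, 2nd start site, chr7:30553051-30553350, plus strand: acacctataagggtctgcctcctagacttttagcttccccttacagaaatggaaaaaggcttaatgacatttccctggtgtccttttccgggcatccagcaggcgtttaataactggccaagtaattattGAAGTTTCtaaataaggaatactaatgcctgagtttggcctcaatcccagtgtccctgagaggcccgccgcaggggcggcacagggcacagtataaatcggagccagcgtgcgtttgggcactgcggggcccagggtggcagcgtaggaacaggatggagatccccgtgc
*Hspb7*, chr4:141420529-141420828, plus strand: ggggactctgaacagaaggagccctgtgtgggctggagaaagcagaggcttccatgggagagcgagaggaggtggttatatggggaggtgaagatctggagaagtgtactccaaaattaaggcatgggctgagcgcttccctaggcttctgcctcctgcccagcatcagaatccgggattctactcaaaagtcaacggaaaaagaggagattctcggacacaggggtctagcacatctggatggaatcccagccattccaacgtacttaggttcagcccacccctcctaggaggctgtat

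The libraries held between 10130415 and 24576377 reads assigned to genes, and the least abundant of the 8 genes, *Hspb3*, had between 120 and 493 reads per library. *Kdm1a* lay between 37.2 and 48.2 CPM in WT Gas against 12.0 and 17.7 CPM in LSD1-mKO Gas, and between 33.4 and 34.9 CPM in WT Sol against 9.13 and 12.9 CPM in LSD1-mKO Sol, so every LSD1-mKO library was below every WT library. Ribosomal protein genes (80 genes) were high in 3 libraries, with a mean of 8.47 log2 CPM in replicate 3 of WT Gas, 7.74 in replicate 5 of LSD1-mKO Gas and 7.11 in replicate 2 of WT Sol. The other Gas libraries had between 6.91 and 7.28 and the other Sol libraries between 6.25 and 6.65. WT Gas replicate 3 also stood apart on the first principal component of its muscle. For the members that the results turn on, values without these libraries are given where they moved most. The tables of the 2 muscles were counted in separate runs, so muscle and set of libraries cannot be told apart.

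The 8 genes differed widely in level. Per kilobase of exon, which allows genes to be compared, *Cryab* stood highest in all 4 groups, with a mean level of 885 ± 412 CPM per kilobase (SD, n = 3) in WT Gas, 1181 ± 503 (SD, n = 5) in LSD1-mKO Gas, 2269.9 ± 196 (SD, n = 3) in WT Sol and 4193 ± 1142 (SD, n = 5) in LSD1-mKO Sol. *Hspb3* stood lowest, between 22.3 ± 6.21 (SD, n = 3) in WT Sol and 26.2 ± 11.6 CPM per kilobase (SD, n = 3) in WT Gas. *Cryab*, *Hspb6* and *Hspb7* together made up between 67.6 and 77.9% of the summed level per kilobase of the 8 genes in every Gas library and between 85.8 and 89.6% in every Sol library. The remaining members were therefore a larger part of the sum in Gas. *Hspb1* alone took 14.1 ± 4.69% (SD, n = 3) of the sum in WT Gas and 4.79 ± 0.109% (SD, n = 3) in WT Sol. *Hspb7* took 10.1 ± 1.17% in WT Gas and 16.4 ± 3.25% (SD, n = 5) in LSD1-mKO Gas, and 16.03 ± 1.79% (SD, n = 3) in WT Sol and 21.6 ± 2.22% (SD, n = 5) in LSD1-mKO Sol. Those 2 pairs of ranges did not overlap. The 8 genes together took between 0.256 and 0.301% of all reads assigned to genes in WT Gas and between 0.356 and 0.681% in LSD1-mKO Gas. In Sol they took between 0.841 and 0.952% in WT Sol and between 1.25 and 2.21% in LSD1-mKO.

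**Figure D1:**
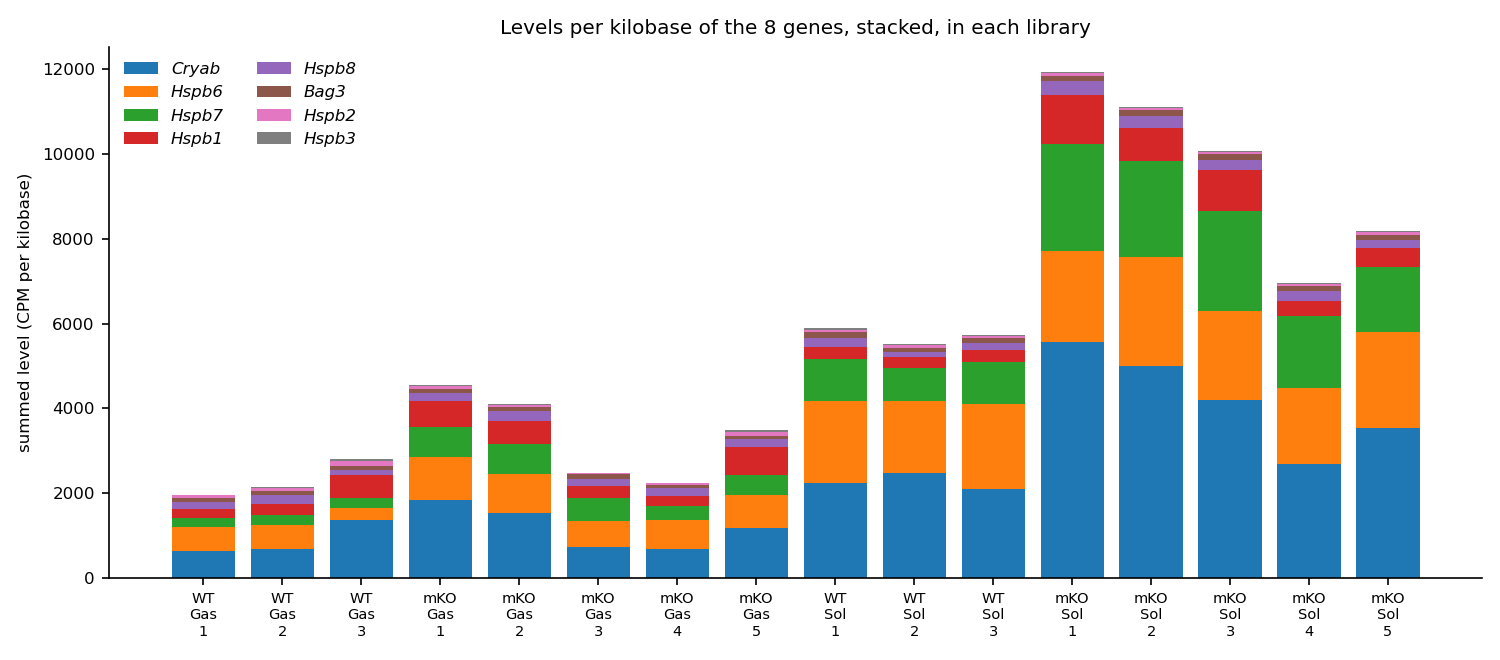
Summed level of the 8 genes in CPM per kilobase of exon (vertical axis) in each of the 16 libraries (horizontal axis, mKO for LSD1-mKO, with the replicate number), 1 colour per gene. *Cryab*, *Hspb6* and *Hspb7* fill at least 85.8% of every Sol bar and at most 77.9% of every Gas bar.

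Sol was compared with Gas within each genotype to ask which of the 8 genes differ between a slow-rich and a fast muscle under dexamethasone. *Hspb6*, *Hspb7*, *Cryab* and *Bag3* were higher in Sol in both genotypes, by between 1.34 and 4.04-fold, and none of the 8 was called lower by edgeR or DESeq2 or was lower at an unadjusted p under 0.05. DESeq2 called these 4 in each genotype, where it called 21.8% of all genes in WT and 29% in LSD1-mKO. In WT, 4 of 8 were called higher in Sol (edgeR quasi-likelihood test, adjusted p under 0.05 over all genes), where 8.75% of the 13749 genes tested were called higher and 8.25% lower. In LSD1-mKO the same 4 genes were called higher, where 12.9% of all genes were called higher and 11.6% lower. For these 4 every Sol library was above every Gas library of its genotype, where 15.9% of all genes were in WT and 11.2% in LSD1-mKO. In bulk muscle, fewer cells of a type and less RNA per cell cannot be told apart.

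*Hspb7* (chromosome 4, 141420779 to 141425311, plus strand, GRCm38) encodes the cardiovascular small heat shock protein, which is most abundant in heart and skeletal muscle and binds filamin C. In WT it had 598, 611 and 678 CPM in the 3 Gas libraries and 2753, 2137 and 2731 CPM in the 3 Sol libraries. In LSD1-mKO it had 1933, 1958, 1482, 916 and 1260.4 CPM in the 5 Gas libraries and 6978, 6296, 6532, 4673 and 4258 CPM in the 5 Sol libraries. Every Sol library was above every Gas library of either genotype, and the 4 groups did not overlap. The log2 fold change of Sol over Gas was 2.01 (SE 0.281, edgeR adjusted p 0.000123) in WT and 1.93 (SE 0.217, edgeR adjusted p 7.67e-06) in LSD1-mKO, 4.04-fold and 3.81-fold.

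*Hspb6* (chromosome 7, 30552178 to 30555443, plus strand) encodes HSP20, a substrate of protein kinase A. In Gas it had 798, 785 and 385 CPM in WT and 1391, 1278, 837, 963 and 1089.5 CPM in LSD1-mKO. In Sol it had 2622, 2313 and 2759 CPM in WT and 2951, 3497, 2864, 2443 and 3091 CPM in LSD1-mKO. All Sol libraries lay above all Gas libraries, the lowest Gas value was that of WT replicate 3, and the 2 Sol groups overlapped. The log2 fold change of Sol over Gas was 1.97 (SE 0.269, edgeR adjusted p 0.000102) in WT and 1.42 (SE 0.205, edgeR adjusted p 9.28e-05) in LSD1-mKO, 3.91-fold and 2.67-fold. Without the 3 libraries of high ribosomal protein level the WT value was 1.75 (edgeR adjusted p 0.000307).

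*Cryab* (chromosome 9, 50751325 to 50756636, plus strand) encodes alpha-B crystallin, which binds desmin and titin. In WT it had 744, 816 and 1639 CPM in Gas and 2706, 2985 and 2515 CPM in Sol. In LSD1-mKO it had 2210.3, 1828, 877, 801 and 1401 CPM in Gas and 6692, 6034, 5046, 3242 and 4247 CPM in Sol. Sol was above Gas in every library, while WT Gas replicate 3 lay within the range of the LSD1-mKO Gas libraries. The log2 fold change of Sol over Gas was 1.36 (SE 0.387, edgeR adjusted p 0.0235) in WT, 2.57-fold, and 1.83 (SE 0.304, edgeR adjusted p 0.000323) in LSD1-mKO, 3.55-fold. The WT call did not hold without WT Gas replicate 1 (log2 fold change 1.16, adjusted p 0.0833), WT Gas replicate 2 (1.23, adjusted p 0.0660) or WT Sol replicate 1 (1.38, adjusted p 0.0614). It held without the 3 libraries of high ribosomal protein level, at 1.72 (edgeR adjusted p 0.0146).

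*Bag3* (chromosome 7, 128523616 to 128546981, plus strand), the co-chaperone that joins HSPB8 to Hsp70, differed least of the 4. In WT it had 192, 206 and 212 CPM in Gas and 350.3, 254 and 310.4 CPM in Sol. In LSD1-mKO it had 232, 249, 278, 190.3 and 229 CPM in Gas and 299, 322, 337, 318 and 309.98 CPM in Sol. Within each genotype the 2 muscles did not overlap. The log2 fold change of Sol over Gas was 0.58 (SE 0.167, edgeR adjusted p 0.0245) in WT and 0.43 (SE 0.129, edgeR adjusted p 0.0232) in LSD1-mKO, 1.498-fold and 1.34-fold. Neither call held each time 1 library was left out. Of 16 such omissions, 13 kept the WT call and 12 kept the LSD1-mKO call. The estimates then ranged from 0.47 to 0.70 in WT and from 0.34 to 0.47 in LSD1-mKO. In WT the call was lost without WT Gas replicate 1 (0.55, adjusted p 0.0725), WT Sol replicate 1 (0.47, adjusted p 0.131) or WT Sol replicate 3 (0.58, adjusted p 0.0768), and in LSD1-mKO it was lost without Gas replicate 4 (0.34, adjusted p 0.0772) or Sol replicate 2, 3 or 4 (from 0.38 to 0.41, adjusted p from 0.0555 to 0.0598).

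**Figure D2:**
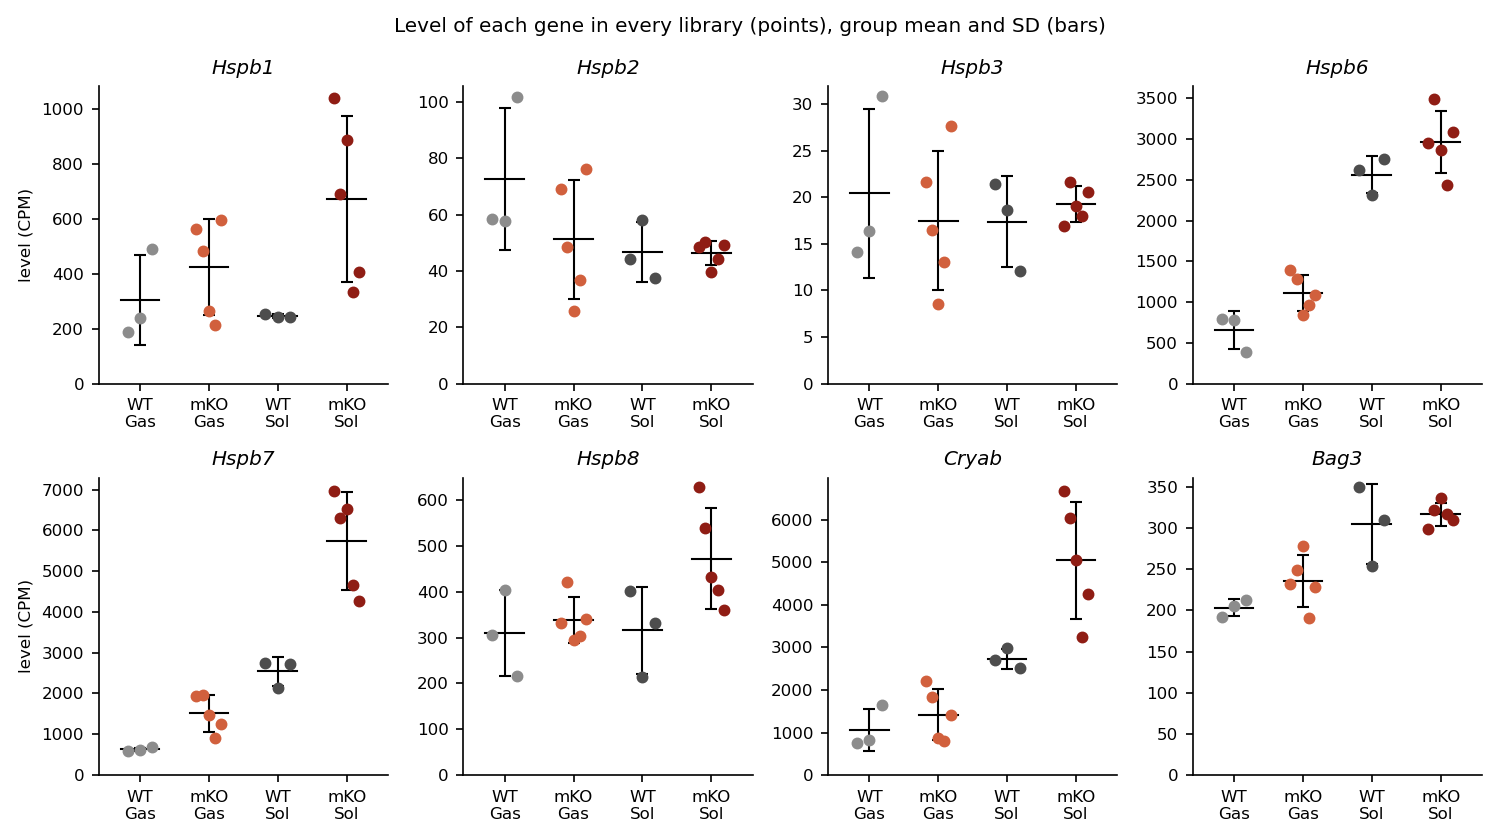
Level in CPM (vertical axis, from 0, on a scale of its own for each gene) of the 8 genes in every library (points) of the 4 groups (mKO for LSD1-mKO), with the group mean and SD (bars, n = 3 for WT and 5 for LSD1-mKO). The 4 groups of *Hspb7* do not overlap, and all Sol libraries of *Hspb6* and *Cryab* lie above all Gas libraries.

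The other 4 members were not called between the muscles in either genotype. At an unadjusted p under 0.05 there were 4 of the 8 in WT, where 31.8% of all genes were, and 5 in LSD1-mKO (*Hspb8* added), where 37.4% were. *Hspb1* (chromosome 5, 135887919 to 135889563, plus strand) encodes the actin-binding stress protein HSP27. In Gas it had 187, 237 and 489.9 CPM in WT and 562, 483, 263, 214 and 596 CPM in LSD1-mKO. In Sol it had 255, 244 and 242 CPM in WT and 1039.6, 691, 886, 334 and 408 CPM in LSD1-mKO. The WT Sol libraries were within 1.05-fold of each other, whereas the highest library of each other group had between 2.63 and 3.11 times the level of the lowest. The log2 fold change of Sol over Gas was -0.30 (SE 0.448, edgeR adjusted p 0.682) in WT and 0.66 (SE 0.348, edgeR adjusted p 0.175) in LSD1-mKO. The WT value had the opposite sign, 0.21 (edgeR adjusted p 0.814), without the 3 libraries of high ribosomal protein level.

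*Hspb8* (chromosome 5, 116408491 to 116422864, minus strand), the small heat shock protein that BAG3 holds, ranged from 217 to 405 CPM in WT Gas (median 306) and from 214 to 402 CPM in WT Sol (median 331). In LSD1-mKO it ranged from 295 to 422 CPM in Gas (median 333) and from 359 to 629 CPM in Sol (median 433). The groups overlapped in both genotypes. The log2 fold change of Sol over Gas was 0.03 (SE 0.269, edgeR adjusted p 0.954) in WT and 0.48 (SE 0.209, edgeR adjusted p 0.102) in LSD1-mKO. Of *Hspb8* and *Bag3*, whose proteins bind each other, only *Bag3* was called between muscles. In LSD1-mKO the estimate of *Hspb8*, 0.48 (SE 0.209), was no smaller than that of *Bag3*, 0.43 (SE 0.129). In WT the estimates were 0.03 (SE 0.269) and 0.58 (SE 0.167). A difference between the 2 genes was not tested.

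*Hspb2* (chromosome 9, 50751078 to 50752354, minus strand) and *Hspb3* (chromosome 13, 113662896 to 113663676, minus strand) encode 2 muscle proteins that form a complex with each other. In WT, *Hspb2* ranged from 57.6 to 102 CPM in Gas and from 37.5 to 58.2 CPM in Sol, and in LSD1-mKO from 25.8 to 76.1 CPM in Gas and from 39.7 to 50.3 CPM in Sol. In WT, *Hspb3* ranged from 14.1 to 30.9 CPM in Gas and from 12.0 to 21.5 CPM in Sol, and in LSD1-mKO from 8.52 to 27.7 CPM in Gas and from 16.9 to 21.7 CPM in Sol. For both genes the groups overlapped between muscles within each genotype and between genotypes within each muscle. For *Hspb2* the log2 fold change of Sol over Gas was -0.64 (SE 0.324, edgeR adjusted p 0.189) in WT and -0.15 (SE 0.250, edgeR adjusted p 0.708) in LSD1-mKO, and for *Hspb3* -0.22 (SE 0.354, edgeR adjusted p 0.707) and 0.13 (SE 0.272, edgeR adjusted p 0.759). *Hspb2* lies head to head with *Cryab*, and their exons overlap on opposite strands by 252 bases, 30.2% of *Hspb2* and 20.9% of *Cryab*. The counting used no strand and left out reads shared by both genes, so the values of *Hspb2*, the lower of the pair, are uncertain.

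Over the 8 genes the median log2 fold change of Sol over Gas was 0.31 in WT and 0.57 in LSD1-mKO, against -0.01 and -3.72e-05 over all 13749 genes. Of the 8, 5 were above 0 in WT and 7 in LSD1-mKO, where 49.1 and 50% of all genes were.

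**Figure D3:**
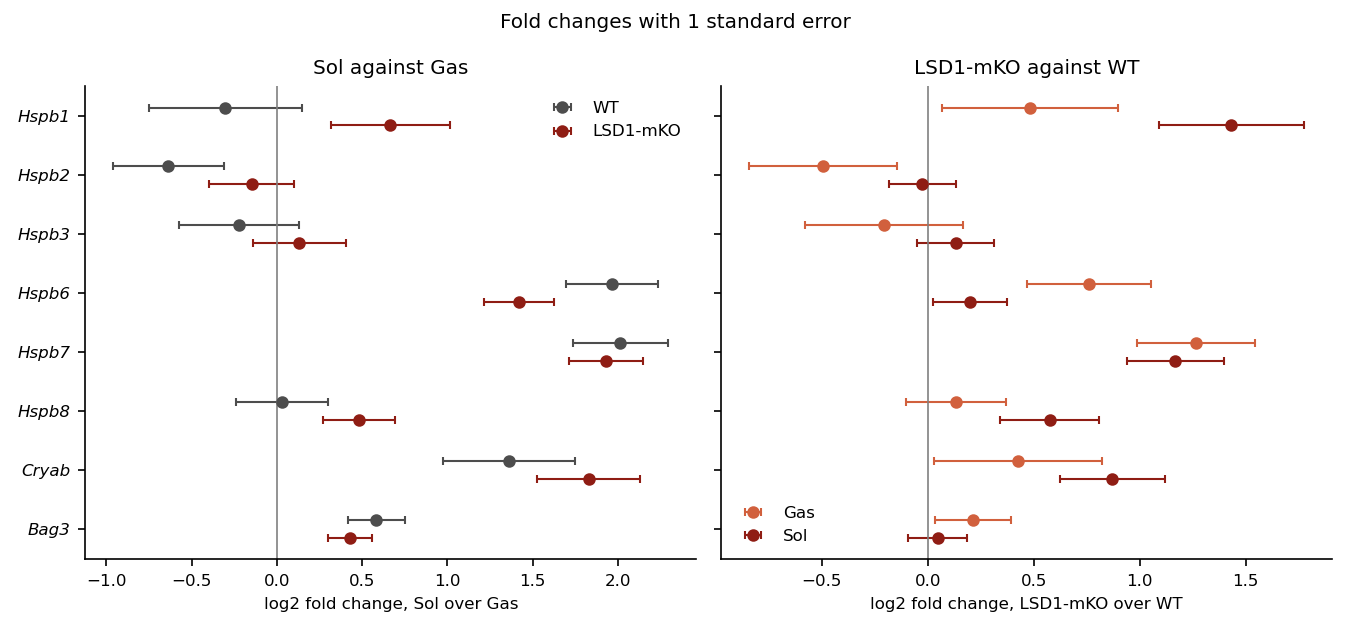
Log2 fold change (horizontal axis) of each gene (vertical axis) with 1 standard error, on the left for Sol over Gas in WT and LSD1-mKO and on the right for LSD1-mKO over WT in Gas and Sol. *Hspb6*, *Hspb7* and *Cryab* lie between 1.36 and 2.01 on the left in both genotypes, and *Hspb7* lies at 1.27 and 1.17 on the right.

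LSD1-mKO was compared with WT within each muscle, where the values describe the members as they were chosen. *Hspb7* had the largest difference in Gas and *Hspb1* in Sol. *Hspb7* averaged 629 ± 42.5 CPM (SD, n = 3) in WT Gas and 1509.7 ± 446 CPM (SD, n = 5) in LSD1-mKO Gas, 2.41-fold (log2 fold change 1.27, SE 0.278). In Sol it averaged 2540.3 ± 349 CPM (SD, n = 3) and 5747 ± 1204 CPM (SD, n = 5), 2.25-fold (log2 fold change 1.17, SE 0.228). In both muscles every LSD1-mKO library was above every WT library. *Hspb7* thus stood, in mean CPM, in the order LSD1-mKO Sol, WT Sol, LSD1-mKO Gas and WT Gas, with no neighbours overlapping.

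*Hspb1* averaged 247 ± 6.98 CPM (SD, n = 3) in WT Sol and 672 ± 302 CPM (SD, n = 5) in LSD1-mKO Sol, 2.70-fold (log2 fold change 1.43, SE 0.343), and its groups did not overlap. In Gas it averaged 305 ± 162 CPM (SD, n = 3) and 424 ± 175 CPM (SD, n = 5), and the groups overlapped (log2 fold change 0.48, SE 0.415). Without WT Gas replicate 3, which had the highest WT value, the log2 fold change in Gas was 1.01. *Cryab* was 1.83-fold in Sol (log2 fold change 0.87, SE 0.248), with groups apart, and 1.34-fold in Gas (log2 fold change 0.42, SE 0.396), with groups that overlapped. The Gas value of *Cryab* was 0.88 without WT Gas replicate 3, 0.89 without the 3 libraries of high ribosomal protein level and 0.20 without LSD1-mKO Gas replicate 1. *Hspb6* was 1.70-fold in Gas (log2 fold change 0.76, SE 0.292), with groups apart, and 1.15-fold in Sol (log2 fold change 0.20, SE 0.174), with groups that overlapped. Its Gas value was 0.50 without WT Gas replicate 3 and 0.51 without the 3 libraries. The remaining 4 genes overlapped between genotypes in both muscles, with log2 fold changes from -0.49 (*Hspb2*) to 0.21 (*Bag3*) in Gas and from -0.03 (*Hspb2*) to 0.57 (*Hspb8*) in Sol. Without the 3 libraries *Hspb2* was at -0.35 in Gas and *Hspb8* at 0.37 in Sol.

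Of the 8, 0 were called in Gas by the edgeR quasi-likelihood test, where 0.0307% of the 13040 genes tested were called, and 2 were at an unadjusted p under 0.05 (*Hspb6* and *Hspb7*), where 9.06% of all genes were. DESeq2 called 1 of the 8 in Gas (*Hspb7*) and 1.01% of all genes. In Sol 1 was called higher (*Hspb7*), where 0.787% of 13342 genes were called higher, and DESeq2 called 3 (*Hspb7*, *Hspb1* and *Cryab*) and 4.53% of all genes. At an unadjusted p under 0.05 there were 4 in Sol (*Hspb8* added), where 15.5% of all genes were. Without the 3 libraries of high ribosomal protein level edgeR called 0 in either muscle. In Sol this leaves out WT Sol replicate 2 alone, and the Sol count was also 0 without WT Sol replicate 1 or without WT Sol replicate 3. In Gas 2 were higher in every LSD1-mKO library than in every WT library, where 4.13% of all genes were, and in Sol 3, where 6.33% were. These counts describe members chosen on this comparison, and nothing is read from them. The median log2 fold change of the 8 was 0.32 in Gas and 0.39 in Sol, against 0.01 and -0.01 over all genes.

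Whether the difference between genotypes itself differed between muscles was fitted as an interaction over the 16 libraries. None of the 8 genes passed by edgeR, 0% of all 13749 genes did, and at an unadjusted p under 0.05 there were 0 of the 8 and 671 of all genes, 4.88%. By DESeq2, 0 of the 8 and 21 of all genes, 0.153%, were called. The interaction is built from the genotype differences known when the genes were chosen. The interaction estimates ran from -0.55 (*Hspb6*, SE 0.328) to 0.97 (*Hspb1*, SE 0.568) on the log2 scale, and that of *Hspb7* was -0.09 (SE 0.342), all with an edgeR adjusted p of 0.987 or 0.989. The standard errors of the 8 estimates ran from 0.211 (*Bag3*) to 0.568 (*Hspb1*).

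Within groups the 8 genes did not vary as 1 set. Of the 28 pairs, 21 had a Pearson r above 0 over the 16 libraries after the 4 group means were removed, with a median r of 0.20. The pairs of highest r were *Hspb2* with *Hspb3* (0.92), *Hspb1* with *Cryab* (0.89), *Hspb2* with *Cryab* (0.73) and *Hspb7* with *Cryab* (0.71). The exons of *Hspb2* and *Cryab* overlap and were counted without strand, so the values of r with *Hspb2* are uncertain. *Hspb6* with *Hspb8* had 0.63, while *Hspb6* with *Hspb1* had -0.00038 and *Hspb6* with *Cryab* 0.09. Before the group means were removed, *Hspb6* with *Cryab* had 0.83 and *Hspb7* with *Cryab* 0.93. All these values are descriptions over libraries that share muscle, scaling and counting.

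The level of ribosomal protein genes moved with part of this pattern. After the group means were removed it had an r of 0.75 with *Hspb2*, 0.68 with *Hspb3*, 0.54 with *Hspb1* and 0.53 with *Cryab*, and of -0.62 with *Hspb8* and -0.54 with *Hspb6*, whereas *Hspb7* had -0.06 and *Bag3* -0.23 (16 libraries). WT Gas replicate 3 had the highest value of its group for 6 of the 8 genes and the lowest for the other 2, *Hspb6* and *Hspb8*. The part of the ribosomal protein level in these values was not tested. In LSD1-mKO, replicate 4 had the lowest value of its group for 4 of the 8 genes in Gas and for 3 of the 8 in Sol, and the highest for 0 in both. LSD1-mKO Gas replicate 3 was also lowest for 4 of the 8, and LSD1-mKO Sol replicates 1 and 5 were each lowest for 2.

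**Figure D4:**
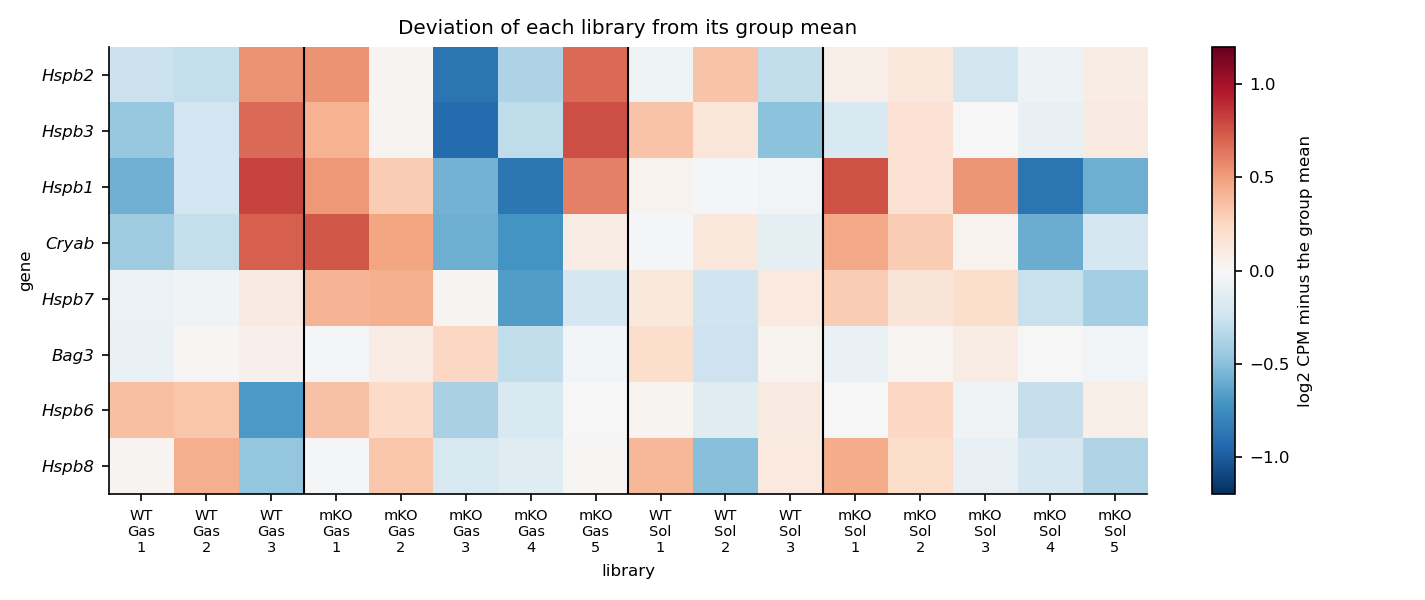
Deviation of each library (horizontal axis, mKO for LSD1-mKO, with the replicate number, groups separated by lines) from its group mean in log2 CPM (colour scale, red above and blue below) for each gene (vertical axis). *Hspb2*, *Hspb3*, *Hspb1* and *Cryab* share red in WT Gas replicate 3, where *Hspb6* and *Hspb8* are blue.

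Among 10759 other genes with at least 50 reads per library on average, those with the pattern most like each member were found by the Pearson r of log2 CPM over the 16 libraries. For *Hspb7* this was *Galns* (0.99), for *Hspb6* *Pdk1* (0.98), for *Cryab* *Csrp3* (0.98), for *Hspb1* *Klhl40* (0.97), for *Bag3* *Hp1bp3* and for *Hspb2* *Pacsin3* (both 0.95), for *Hspb8* *Gnpda1* (0.94) and for *Hspb3* *Ppp1r7* (0.88). After the group means were removed, *Klhl40* was the gene most like both *Hspb1* (0.94) and *Cryab* (0.93). Those of 5 other members were *Bin1* for *Hspb2* (0.97), *Mtrf1l* for *Hspb3* (0.93), *Prkaca* for *Hspb6* (0.96), *Ehd4* for *Hspb7* (0.92) and *Uhrf1bp1l* for *Bag3* (0.89). For the mean of the 8 genes the 5 most alike were *Pqlc1* (0.91), *P2rx5* (0.89), *Rras2* (0.89), *Arl6ip5* (0.89) and *Klhl40* (0.88). The genes named here were picked for the highest r among 10759 over 16 libraries, so a high r follows in part from the choice. Before the group means were removed, r also holds the difference between muscles that many genes share.

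Genes that work with the small heat shock proteins were counted from lists. For the lists between genotypes, the shares of all genes at an unadjusted p under 0.05 were 9.06% in Gas and 15.5% in Sol, and those called by DESeq2 were 1.01 and 4.53%. For the lists between muscles, edgeR called 8.75% of all genes higher and 8.25% lower in Sol in WT. In LSD1-mKO these shares were 12.9 and 11.6%. Of 4 further members of the family, only *Hspb11* passed the filter on low counts, at between 2.56 and 3.65 CPM in the group means, with log2 fold changes of Sol over Gas of -0.45 in WT and 0.01 in LSD1-mKO. Of 8 partners of BAG3 and filamin genes, 1 was called higher and 1 lower in Sol in WT, and 2 higher and 2 lower in LSD1-mKO. *Flnc*, the muscle filamin that BAG3 and HSPB7 bind, averaged 1067 CPM in WT Gas and 2459 CPM in WT Sol (log2 fold change 1.205, SE 0.353, edgeR adjusted p 0.0271). In LSD1-mKO *Flnc* was at 0.95 (SE 0.272, edgeR adjusted p 0.0170), with groups that overlapped. *Synpo2*, which links BAG3 to autophagosome formation, averaged 260 CPM in LSD1-mKO Gas and 706 CPM in LSD1-mKO Sol (log2 fold change 1.44, SE 0.374, edgeR adjusted p 0.00964). In WT *Synpo2* was at 1.43 (SE 0.483, edgeR adjusted p 0.0510), not called, with groups apart. *Vps18*, a subunit of the membrane tethering complexes of lysosomes, was lower in Sol in both genotypes, by -0.76 in WT (SE 0.186, edgeR adjusted p 0.0102) and -0.73 in LSD1-mKO (SE 0.144, edgeR adjusted p 0.00136). Between genotypes 0 of these 8 were called in either muscle by edgeR or by DESeq2, and each muscle had 1 at an unadjusted p under 0.05. *Flnc* was at 0.73 (SE 0.288) and *Hspa8* at 0.36 (SE 0.263) in Gas, and *Flnc* at 0.47 (SE 0.314) and *Flna* at 0.38 (SE 0.144) in Sol.

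Of 32 large chaperones and co-chaperones, 11 were called in WT, each of them higher in Sol, and 13 higher and 2 lower in LSD1-mKO, with medians of 0.18 and 0.32. The Hsp70 gene *Hspa1a* was higher by 2.20 in WT (SE 0.376, edgeR adjusted p 0.00073) and 2.22 in LSD1-mKO (SE 0.290, edgeR adjusted p 3.62e-05). Its near-identical copy *Hspa1b* was higher by 2.38 in LSD1-mKO (SE 0.392, edgeR adjusted p 0.000301) and was at 1.42 in WT, not called (SE 0.494, edgeR adjusted p 0.0569). Reads that fit both copies were not counted, so the values of both genes are uncertain. *Dnajb4*, an Hsp40 co-chaperone, was higher by 1.88 in WT (SE 0.299, edgeR adjusted p 0.000416) and 1.94 in LSD1-mKO (SE 0.232, edgeR adjusted p 1.54e-05). The Hsp70 relative *Hspa1l* was higher by 1.67 in WT (SE 0.210, edgeR adjusted p 4.95e-05) and by 0.96 in LSD1-mKO (SE 0.159, edgeR adjusted p 0.000312). Between genotypes 0 of the 32 were called in either muscle by edgeR, 0 in Gas and 2 in Sol (*Bag2* and *Hspa4l*) by DESeq2, and at an unadjusted p under 0.05 there were 3 in Gas and 6 in Sol. The largest differences were 0.84 for *Hspa1l* (SE 0.230) and -0.63 for *Hspe1* (SE 0.346) in Gas and 0.81 for *Bag2* (SE 0.235) and 0.70 for *Hspa4l* (SE 0.179) in Sol. Of 3 heat shock factors and their binding protein, *Hsf4* was called lower in Sol in both genotypes (-1.29, SE 0.276, edgeR adjusted p 0.00421 in WT and -1.77, SE 0.216, edgeR adjusted p 1.85e-05 in LSD1-mKO). None of the 4 was called between genotypes by edgeR or DESeq2 (at an unadjusted p under 0.05, 0 in Gas and 1 in Sol), where *Hsbp1* was at -0.39 (SE 0.247) and *Hsf2* at -0.21 (SE 0.304) in Gas, and *Hsf4* at -0.56 (SE 0.246) and *Hsf2* at -0.30 (SE 0.179) in Sol.

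Of 11 Z-disc and intermediate filament genes, 4 were called higher and 2 lower in Sol in WT, and 5 higher and 2 lower in LSD1-mKO. *Myoz2*, a slow-fiber Z-disc protein, was higher in WT Sol by 2.92 (SE 0.305, edgeR adjusted p 8.98e-06), and *Csrp3*, the muscle LIM protein, was higher in LSD1-mKO Sol by 2.26 (SE 0.423, edgeR adjusted p 0.00089). *Myoz2* was also higher in LSD1-mKO Sol, by 2.20 (SE 0.230, edgeR adjusted p 3.73e-06), and *Csrp3* in WT Sol, by 1.75 (SE 0.537, edgeR adjusted p 0.0332). The fast-fiber genes *Actn3* and *Myoz1* were lower in WT Sol, by -5.25 (SE 0.612, edgeR adjusted p 2.44e-05) and -2.51 (SE 0.240, edgeR adjusted p 4.26e-06), and in LSD1-mKO Sol, by -4.37 (SE 0.455, edgeR adjusted p 3.59e-06) and -2.26 (SE 0.184, edgeR adjusted p 3.16e-07). Between genotypes 0 of the 11 were called by edgeR, 1 in Gas (*Actn2*) and 2 in Sol (*Csrp3* and *Des*) by DESeq2, and at an unadjusted p under 0.05 there were 2 in Gas and 3 in Sol. *Actn2* was at 1.05 (SE 0.230) and *Csrp3* at 0.65 (SE 0.554) in Gas, and *Actn3* at 1.38 (SE 0.533) and *Csrp3* at 1.14 (SE 0.290) in Sol.

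Fiber type genes followed the labelled muscle, apart from the fast myosin *Myh1*. All 8 slow fiber genes were called higher in Sol in both genotypes, with medians of 4.25 and 3.80, led by the slow myosin *Myh7* (5.45 in WT, SE 0.271, edgeR adjusted p 3.53e-09, and 5.001 in LSD1-mKO, SE 0.206, edgeR adjusted p 8.70e-11). Of 9 fast fiber genes, 7 were called lower in Sol in WT and 8 in LSD1-mKO, led by the fast myosin *Myh4* (-9.27 in WT, SE 0.943, edgeR adjusted p 7.02e-06, and -6.21 in LSD1-mKO, SE 0.640, edgeR adjusted p 3.24e-06). *Myh1* went the other way in both genotypes and was not called (0.82 in WT, SE 0.690, edgeR adjusted p 0.439, and 0.63 in LSD1-mKO, SE 0.533, edgeR adjusted p 0.420). In WT it averaged 7661 CPM in Sol and 4342 CPM in Gas, without overlap. Between genotypes 0 genes of both lists were called by edgeR and 1 by DESeq2 (*Myl1*, in Gas). At an unadjusted p under 0.05 there were 2 slow and 5 fast fiber genes in Gas, and 0 and 2 in Sol. In Gas the slow list had a median of 0.44, with 8 of 8 genes above 0, and the fast list a median of -0.89, with 1 of 9 above 0. The median over all genes was 0.01. The largest values were 1.15 for *Myl2* (SE 0.377) and 0.82 for *Tnnt1* (SE 0.363) of the slow list. Those of the fast list were -1.55 for *Pvalb* (SE 0.482) and -1.47 for *Myl1* (SE 0.292). In Sol the medians were -0.06, with 3 of 8 above 0, and -0.31, with 2 of 9 above 0, against -0.01 over all genes. The largest values of the slow list there were 0.38 for *Myl2* (SE 0.207) and -0.37 for *Myh7* (SE 0.209). Those of the fast list were 2.60 for *Myh4* (SE 0.762), opposite to the median of its list, and -1.43 for *Myh1* (SE 0.544). The part of fiber type in the values of *Hspb6*, *Hspb7* and *Cryab* was not tested.

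Markers of other cell types in the muscles are given beside these values. All 9 skeletal muscle fiber markers had reads in every library. Their summed level lay between 113101 and 147438 CPM in WT Gas and between 87840 and 121127 CPM in LSD1-mKO Gas. In Sol it lay between 101713 and 109162 CPM in WT and between 74391 and 120888 CPM in LSD1-mKO. The genotypes overlapped in both muscles. The summed level of 6 fibroblast markers lay between 1407 and 1964 CPM in WT Gas and between 873 and 1111 CPM in LSD1-mKO Gas, without overlap, and between 943 and 1558 CPM in WT Sol and 609.7 and 2043 CPM in LSD1-mKO Sol. That of 4 satellite cell markers lay between 26.5 and 33.2 CPM in WT Sol and between 15.5 and 25.3 CPM in LSD1-mKO Sol, without overlap, and between 13.4 and 20.8 CPM in WT Gas and 12.0 and 17.7 CPM in LSD1-mKO Gas. That of 5 macrophage markers lay between 58.9 and 66.7 CPM in WT Gas and between 40.5 and 45.0 CPM in WT Sol, and the LSD1-mKO groups overlapped, from 54.6 to 76.5 in Gas and from 37.3 to 92.3 CPM in Sol. That of 5 adipocyte markers ranged from 357 to 803 CPM in all libraries but WT Gas replicate 3, with 1271 CPM. Smooth muscle (6 markers), tendon (4), Schwann cell (5) and neutrophil (4) markers overlapped between genotypes in both muscles, and 6 endothelial markers lay from 268 to 479 CPM in Gas and from 435 to 605 CPM in Sol. Of 5 red blood cell markers, 4 (*Hba-a1*, *Hba-a2*, *Hbb-bs* and *Hbb-bt*) were at 0 in every library. The remaining marker, *Alas2*, had reads in every library, at between 8.66 and 28.1 CPM. Reads that fit several places were not counted, so the values of 0 are uncertain and do not show that blood RNA was absent. The part of these cell types in the values of the 8 genes was not tested.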

How the data were processed

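The deposited tables hold raw read counts per gene, 1 table for each muscle, with no normalization. Poly(A) RNA was sequenced as 75-base single-end reads, which the authors aligned to mm10 (the GRCm38 assembly) using STAR (version not given in the sources used here) and counted, per the file headers, over exons of the iGenomes annotation with featureCounts 1.5.2, without strand and without reads that fit several places or genes. The deposited tables of the authors' own comparisons (log2 fold change, mean log2 CPM, p-value and adjusted p-value) were not used. All 16 count columns were mapped to samples by their titles, and 0 columns belonged to others.

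Counts were analysed with edgeR 4.0.16 in R 4.3.3. Genes were kept by filterByExpr (minimum count 10), libraries were scaled by TMM, and groups were compared by the two-sided quasi-likelihood F-test with Benjamini-Hochberg adjustment over all genes tested and a threshold of 0.05. Genotypes were compared within each muscle (8 libraries), and muscles and the interaction in 1 fit of the 16 libraries. Standard errors were taken as the absolute log2 value over the root of F. CPM values use 1 TMM scaling of the 16 libraries. Lengths and positions were read from GENCODE gene models of GRCm38, not the authors' own annotation, and promoters from RefSeq. The labels do not say that libraries of 1 number come from 1 mouse. In LSD1-mKO, libraries of the same number deviated from their group means together across the muscles (r from 0.30 to 0.46 for 5 of 5 numbers, each the best match), and in WT they did not (r from -0.63 to 0.18), so a fit with the number as a block bears on the LSD1-mKO muscle comparison, where it changed no call. Nothing in the labels says that a group's libraries come from separate mice, and p-values measure the spread between these libraries.

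All 8 genes and *Kdm1a* are named. Of each list and comparison up to 3 called genes are named, those of largest log2 fold change with at least 50 reads per library on average and groups that do not overlap, or, where none was called, the 2 of largest change. *Des*, called by DESeq2, and *Myh1* in the comparison of muscles are named outside this rule, after their values were seen. Between muscles, the same holds for *Flnc*, *Hspa1l* and *Myoz2* in LSD1-mKO and for *Synpo2*, *Hspa1b* and *Csrp3* in WT. The members and lists were chosen with earlier results of these data known. The alternatives were RLE scaling, no filter, DESeq2 1.42.0, the replicate block, other sets of libraries in the fit and each library left out. The scripts were tested on simulated counts. The gene most like *Hspb8* after group means were removed is not reported here.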

Additional observations from a re-analysis of the deposited data

How the results depend on the processing

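The number of the 8 genes called between muscles was 4 in WT and 4 in LSD1-mKO, and stayed 4 under RLE scaling, under DESeq2 and without the 3 libraries of high ribosomal protein level. *Hspb6* and *Hspb7* were called in both genotypes under every alternative run. With only the WT libraries in the fit 2 were called in WT (*Cryab* 1.35, adjusted p 0.0517, and *Bag3* 0.57, adjusted p 0.147, were lost), which also leaves fewer libraries. Leaving out 1 library gave from 2 to 4 in WT, with 2 without WT Gas replicate 1 or WT Sol replicate 1, and from 3 to 4 in LSD1-mKO, where *Bag3* was also lost without the filter (adjusted p 0.0693), for a count of 3. Between genotypes in Gas the count was 0, and 1 (*Hspb7*) under DESeq2 or with all 16 libraries in 1 fit. In Sol it was 1, and 2 without the filter, 3 under DESeq2 and 0 without the 3 libraries, of which only WT Sol replicate 2 is in Sol. Without single libraries the Sol count went from 0 to 2. It was 0 without WT Sol replicate 1, 2 or 3 or LSD1-mKO Sol replicate 2 or 3, and 2 without LSD1-mKO Sol replicate 4 or 5. The cause was not tested. Counts over all genes moved by more than 1.5 times between genotypes (Gas 4, 10 without the filter, 132 under DESeq2, 62 with all 16 libraries, and 1 to 7 without single libraries; Sol 129, 336, 605, 412 with the replicate block, 23 without the 3 libraries, and 11 to 228 without single libraries, with 11 without WT Sol replicate 3), in WT between muscles (2337, 1011 with only the WT libraries, and 1132 to 2839 without single libraries, with 1132 without WT Sol replicate 1) and for the interaction (0, and 21 under DESeq2).

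With the replicate number as a block the counts were 0 in Gas, 2 in Sol (*Hspb1* added), 3 in WT between muscles (*Bag3* 0.57, adjusted p 0.0579), 4 in LSD1-mKO and 0 for the interaction. Across genotypes and in WT across muscles the numbers did not pair the libraries, and same-numbered libraries had r from -0.63 to 0.41.

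Estimates near 0 changed sign. Without the 3 libraries these were *Hspb8* in Gas between genotypes (-0.0561), *Hspb2* and *Bag3* in Sol between genotypes (0.18 and -0.0608), *Hspb1* and *Hspb3* between muscles in WT (0.21 and 0.12) and *Hspb2* between muscles in LSD1-mKO (0.0226). The cause was not tested. Without single libraries the ranges that crossed 0 were, between genotypes, -0.43 to 0.21 (*Hspb3*) and -0.0616 to 0.40 (*Hspb8*) in Gas, and -0.14 to 0.18 (*Hspb2*), -0.0621 to 0.32 (*Hspb3*) and -0.0608 to 0.16 (*Bag3*) in Sol. Between muscles they were -0.56 to 0.19 (*Hspb1*), -0.43 to 0.17 (*Hspb3*) and -0.20 to 0.29 (*Hspb8*) in WT, and -0.33 to 0.0338 (*Hspb2*) and -0.0600 to 0.35 (*Hspb3*) in LSD1-mKO, and for the interaction -0.0593 to 0.56 (*Hspb3*) and -0.25 to 0.0263 (*Hspb7*).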

Other observations

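The summed level of the 8 genes had the same highest and lowest replicate numbers in both muscles of LSD1-mKO mice. In Gas it was 6752, 6284, 4066, 3437 and 5019.8 CPM in replicates 1 to 5, and in Sol 18653, 17450, 16157, 11475 and 12742 CPM. Replicates 1 and 2 were highest and replicate 4 was lowest in each. In WT it was 2898, 3135 and 3753 CPM in Gas and 9154, 8224 and 8937 CPM in Sol, where the order differed. The labels do not say whether libraries of 1 number come from 1 mouse.

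Neutrophil markers (4 genes, summed) had 122 CPM in LSD1-mKO Gas replicate 3 and 44.6 CPM in WT Gas replicate 3, and between 0.735 and 8.61 CPM in the other 14 libraries. LSD1-mKO Gas replicate 3 also had the lowest *Hspb2* (25.8 CPM) and *Hspb3* (8.52 CPM) of all libraries. WT Gas replicate 3, in contrast, had the highest *Hspb2* (102 CPM) and *Hspb3* (30.9 CPM) of all libraries. The part of these cells in those values was not tested.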
